A study of Mus musculus with 4 samples.

Results

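The genes described here encode hydrolases of the lysosome, the proteins that help them, proteins of the lysosomal membrane, the enzyme that tags hydrolases for delivery and a pair of transcription factors of the lysosomal programme. They were chosen by name, without the cathepsin proteases, and all 38 of the 38 were found among the 14936 genes of the expression table. The cells were mouse bone marrow-derived macrophages, grown from bone marrow in medium with the growth factor M-CSF at 20 ng/ml. The groups were cells labelled Phlpp1-deficient (KO) after 12 h of interleukin-4 (IL-4), KO after 24 h, wild type (WT) after 12 h and WT after 24 h, all with IL-4 at 20 ng/ml. Each group had 1 library of messenger RNA, so no group had a replicate and no group was without IL-4. The labels name no allele, strain, age or sex, leave unsaid whether separate animals were used, and spell the deficient genotype differently in 1 library. Phlpp1 encodes a phosphatase that acts on the kinase AKT, and IL-4 drives the alternative activation of macrophages.

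The lysosome is the acidic compartment in which a cell breaks down what it takes up or recycles. Its soluble hydrolases are made in the secretory pathway, receive a mannose 6-phosphate tag in the Golgi apparatus and are carried by receptors to endosomes. Many of them cut a single kind of bond in a glycosaminoglycan, sphingolipid, glycoprotein or other substrate, often in a fixed order, and inherited loss of such an enzyme causes storage of its substrate. Macrophages, which clear dead cells, debris and lipoproteins, hold many lysosomes. TFEB and TFE3 are transcription factors that move to the nucleus when the kinase mTORC1 is inactive and bind the E-box core CACGTG, which is part of the longer CLEAR element found near many lysosomal genes.

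Because that core is the site through which those factors are known to act, it was searched in RefSeq promoters (build GRCm38.p6), windows of 250 bases before to 50 bases after each annotated start, some genes having several. Of the members, 33 had a promoter in the table, and Hgsnat, Asah1, Npc1, Galns and Aga had none. The letters CACGTG, a palindrome and so the same on both strands, stood in the promoters of 9 of these 33 members, or 27.3%, beside 8.09% of all 27025 genes with a promoter there and 11.1% of those also in the expression table. The longer TCACGTGA, which contains CACGTG, was found for 3 members (9.09%), beside 1.12% of all genes and 1.97% of those in the expression table, and its extension by a G before and a C after, a palindrome of 10 letters, for Cln3 alone, beside 0.370% and 0.679%. A match is a description of letters and not of binding. For 8 of the 9 genes the copy nearest the start is shown with 10 bases on each side, 5′ to 3′ on the gene's strand, with CACGTG in capitals.
Arsa (chr15:89477425-89477450, minus strand): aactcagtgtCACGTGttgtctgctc
Cln3 (chr7:126583342-126583367, minus strand): cgggtactgtCACGTGacccccaacc
Gaa (chr11:119267813-119267838, plus strand): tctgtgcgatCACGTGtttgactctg
Gla (chrX:134601184-134601209, minus strand): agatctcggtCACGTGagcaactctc
Glb1 (chr9:114401020-114401045, plus strand): gcttctgagtCACGTGgcctacagag
Mcoln1 (chr8:3500464-3500489, plus strand): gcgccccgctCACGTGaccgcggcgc
Naglu (chr11:101070011-101070036, plus strand): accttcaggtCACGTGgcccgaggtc
Sgsh (chr11:119355524-119355549, minus strand): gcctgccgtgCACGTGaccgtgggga
Lamp1, for a major glycoprotein of the lysosomal membrane, held 4 copies within the 80 bases before its start (chr8:13159081-13159160, plus strand), and this stretch is shown whole for that reason.
Lamp1 upstream: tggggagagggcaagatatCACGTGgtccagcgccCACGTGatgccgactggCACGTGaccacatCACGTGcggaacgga
The copies lay from base -15 to base -227, counted from the RefSeq start, and in 6 of the 9 genes the nearest one lay within 100 bases of it. The GENCODE M21 annotation places some starts elsewhere, and by its bounds the copies shown for Cln3, Mcoln1 and Naglu lie inside the gene.

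**Figure D1:**
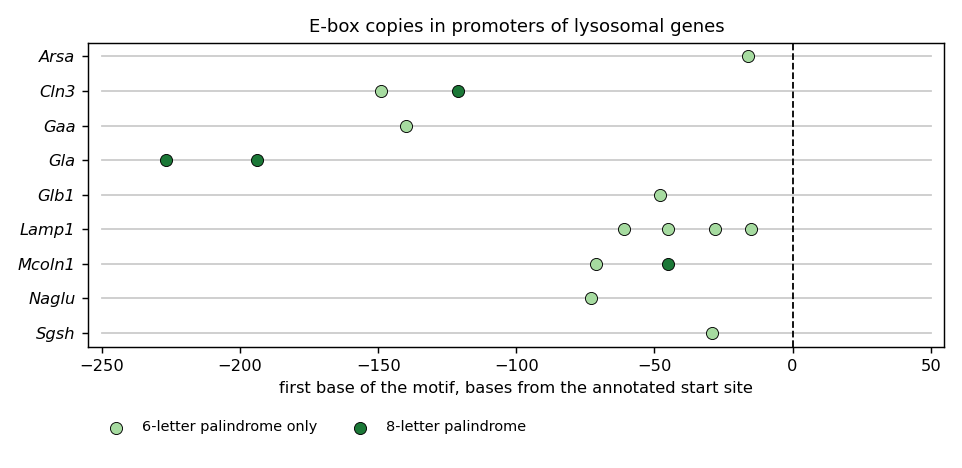
Position of each copy of CACGTG in the promoters of the 9 lysosomal genes that held it, in bases from the annotated start site (dashed line). Dark points mark the 8-letter palindrome TCACGTGA, in Cln3, Gla and Mcoln1. All copies lay upstream of the RefSeq start used, and Lamp1 had 4 between base -61 and base -15.

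The KO-labelled libraries held 39864159 counts at 12 h and 36707999 at 24 h, and the WT-labelled ones 41770309 and 37155457. Phlpp1 itself went against the labels, with 42.9 and 62.6 CPM (counts scaled to a common library size) in the KO-labelled libraries at 12 h and 24 h, against 11.9 and 15.6 CPM in the WT-labelled ones. Its log2 fold was 1.93 (SE 0.10, edgeR adjusted p = 3.28e-14). Its paralogue Phlpp2 lay within 9.74 to 11.4 CPM in all 4 libraries. Counts per gene cannot show the loss of a single exon. Whether the KO and WT labels were exchanged was not tested either, and an exchange would reverse every genotype direction reported here. All genotype comparisons follow the deposited labels. The macrophage markers Csf1r (1926 CPM or more), Itgam (532 CPM or more) and Adgre1 (1172 CPM or more) were present in every library.

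A few lysosomal genes, Psap above all, were among the most abundant genes of these macrophages, while others were far down the order. Together the 38 took 4.90% and 5.16% of all counts in the KO-labelled libraries at 12 h and 24 h, against 4.90% and 5.11% in the WT-labelled ones. Psap, the precursor of the saposins that present sphingolipids to their hydrolases, made up between 48.9% and 50.9% of that share. Without Psap the share was 2.49% and 2.53% in the KO-labelled libraries, against 2.50% and 2.54% in the WT-labelled ones, so the genotypes differed little in the total. The 95% Wilson interval of the share of all 38 at 24 h was 5.15% to 5.16% with the KO label, and all such intervals cover counting error only.

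Levels of different genes were compared by the deposited FPKM, which divides by gene length. Psap stood at 8677 and 9467 FPKM in the KO-labelled libraries and at 8646 and 9275 FPKM in the WT-labelled ones, with rank 6 of all genes by mean FPKM. Below it came the membrane glycoprotein genes Lamp1 (mean 1805 FPKM) and Cd68 (1714 FPKM), then Grn, for the secreted and lysosomal protein progranulin (1189 FPKM), and Lipa, for lysosomal acid lipase (926 FPKM). Hexa, for the alpha chain of beta-hexosaminidase (789.97 FPKM), Laptm5, for a membrane protein of blood cells (775 FPKM), the tetraspanin gene Cd63 (669 FPKM) and Npc2, for the soluble cholesterol carrier (601 FPKM), completed the 9 members among the 100 most abundant genes. Of these, Lamp1 and Cd68 changed places in none of the 4 libraries, while Hexa and Laptm5 were in opposite order in different libraries. At the lower end, Tfeb averaged 11.1 FPKM, Arsb 9.74 FPKM and Sgsh 9.73 FPKM (rank 4780), so mean levels spanned 927-fold. Even the smallest value of a member rested on 1181 counts.

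**Figure D2:**
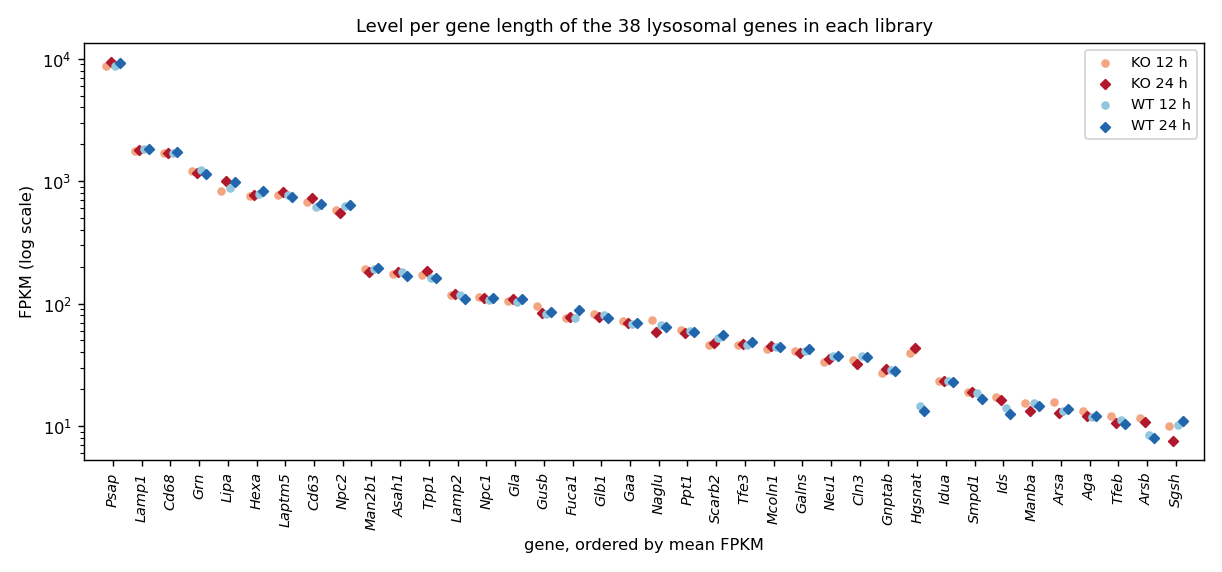
FPKM (log axis) of the 38 lysosomal genes in each of the 4 libraries, ordered by mean. Points are single libraries, circles at 12 h and diamonds at 24 h, red for KO and blue for WT. The libraries lie close together for most genes, and Hgsnat stands out with both red points above both blue ones.

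The comparison of libraries labelled KO with the WT-labelled ones asked which lysosomal genes differed with the labelled genotype. Most differed little. In edgeR's quasi-likelihood test of genotype across both times, with time in the model, 3 of the 38 members were called higher (Hgsnat, Arsb and Ids) and 3 lower (Sgsh, Scarb2 and Npc2) at an adjusted p under 0.05. The called share was 15.8%, beside 9.52% of the 10993 genes tested, with 7.89% called higher, beside 4.18%, and 7.89% called lower, beside 5.34%. All members had 32.3 CPM or more, while genes were tested from 1 CPM, and small differences are easier to call at high counts. With a 5 CPM filter 10.7% of all genes were called. The median fold of the members was log2 -0.043, beside log2 -0.0025 over all genes tested, and 26 of 38 folds (68.4%) lay below 0, beside 50.5% of all genes. The genotypes did not overlap for 20 members (52.6%), beside 44.7% of all genes. Both libraries labelled KO lay below both labelled WT for 16 members (42.1%), beside 23.1% of all genes, and above both for 4 members (10.5%), beside 21.6%. The folds of the 32 members that were not called ran from log2 -0.19 to log2 0.095, and their 95% intervals reached no further than log2 -0.35 and log2 0.23. Scaling by the library total alone moved the median of the members to log2 0.015 and that of all genes to log2 0.055. It left Hgsnat, Arsb and Ids called and called none lower, a called share of 7.89%, beside 7.63% of all genes. For error, this additive fit has just 1 degree of freedom of its own. With 1 library per group, that reflects how far the KO over WT ratio changed between the times, a change that may be technical. Scatter between replicates was not measured. The p-values and intervals rest mostly on 27.8 prior degrees of freedom, borrowed across genes. In bulk RNA fewer cells of a type and less RNA per cell cannot be told apart.

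**Figure D3:**
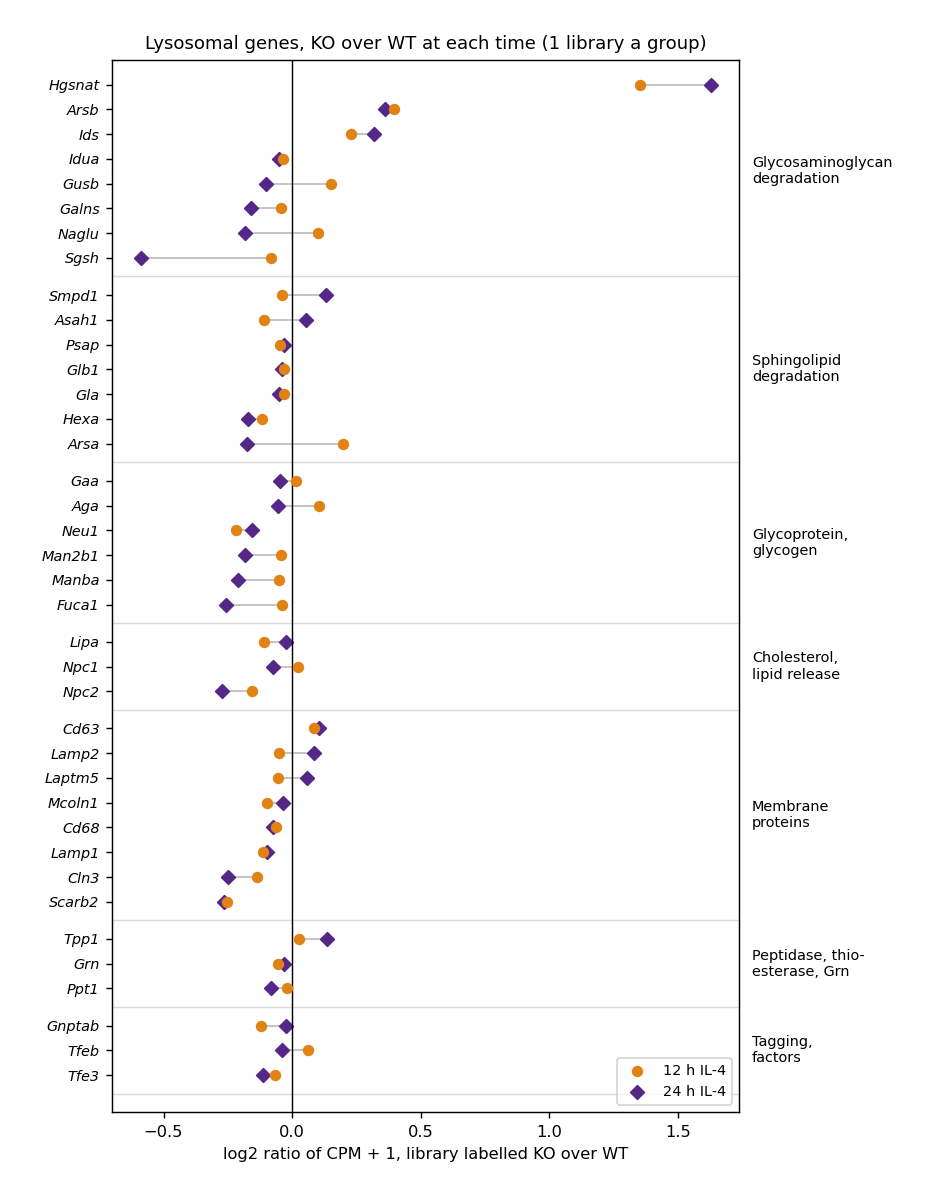
Ratio of the library labelled KO over that labelled WT, as log2 of CPM + 1, at 12 h (orange circles) and 24 h (purple diamonds) for each of the 38 lysosomal genes, grouped by what their products do. Hgsnat lies at 1.35 and 1.63, and most other genes lie close to 0. Each point rests on 1 library per group.

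Genes for the degradation of glycosaminoglycans, the long sugar chains of proteoglycans, held 4 of the 6 calls. Of these 8 members, 3 were called higher and 1 lower, beside 4.18% and 5.34% of all genes tested. Of the other 30 members, 0 were called higher. By DESeq2, and by edgeR with time left out, Hgsnat alone of these 8 was called. Whether the group differed from the other members was not tested. Hgsnat encodes the membrane enzyme that adds an acetyl group to the terminal glucosamine of heparan sulfate (chromosome 8, 25944453 to 25976753, minus strand, GRCm38). It stood at 102 and 115 CPM in the KO-labelled libraries at 12 h and 24 h, against 39.4 and 36.6 CPM in the WT-labelled ones. Both libraries labelled KO lay well above both labelled WT. The log2 fold was 1.51 (SE 0.088, edgeR adjusted p = 1.30e-13). Between single libraries the ratio was 2.59-fold at 12 h (95% interval by exact counting 2.45 to 2.75) and 3.15-fold at 24 h (2.96 to 3.35). It was the only member past 1 on the log2 scale of CPM + 1 at either time, a size reached by 1.04% of all genes at 12 h and 1.05% at 24 h. DESeq2 and every fit of 3 libraries also called it higher, with log2 folds from 1.43 to 1.60.

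Arsb encodes the sulfatase that acts on dermatan and chondroitin sulfate. Its level was 45.6 and 42.2 CPM in the KO-labelled libraries and 34.4 and 32.7 CPM in the WT-labelled ones, with no overlap. The log2 fold was 0.39 (SE 0.093, edgeR adjusted p = 0.004995). Ids encodes iduronate 2-sulfatase, which acts on heparan and dermatan sulfate. Its level was 95.01 and 91.2 CPM with the KO label and 80.9 and 73.0 CPM with the WT label, again with no overlap, and its log2 fold was 0.28 (SE 0.080, adjusted p = 0.0225). Neither call was as firm as that of Hgsnat: DESeq2 gave adjusted p = 0.0687 for Arsb and 0.117 for Ids, and edgeR with time left out of the model gave 0.0734 and 0.159. Without KO 12 h, KO 24 h, WT 12 h and WT 24 h in turn, in fits that also left out time, adjusted p was 0.0988, 0.0195, 0.212 and 0.388 for Arsb and 0.163, 0.0744, 0.293 and 0.784 for Ids, with folds of the same direction throughout.

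Sgsh was the member of this group called lower. It encodes the sulfamidase that removes the N-linked sulfate of heparan sulfate, the step before that of Hgsnat. It stood at 42.4 and 32.3 CPM in the KO-labelled libraries at 12 h and 24 h, against 44.9 and 49.0 CPM in the WT-labelled ones. The groups did not overlap, but most of the distance lay at 24 h: the ratio was 0.944-fold at 12 h (counting interval 0.884 to 1.01) and 0.658-fold at 24 h (0.611 to 0.709). Its log2 fold over both times was -0.34 (SE 0.10, edgeR adjusted p = 0.0328). That call was lost with the low-count filter applied before scaling (adjusted p = 0.0761), with library totals alone (0.165), with DESeq2 (0.298) and with time left out (0.276). Without KO 12 h, KO 24 h, WT 12 h and WT 24 h in turn, adjusted p was 0.00738, 0.614, 0.374 and 0.771, and the log2 fold was -0.54 without KO 12 h and -0.15 without KO 24 h. Sgsh shares exon sequence with Card14 on the opposite strand, which had 3.31 to 6.67 CPM, and strand-aware counting is not stated.

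The rest of the glycosaminoglycan group was not called. Naglu, for the alpha-N-acetylglucosaminidase that follows Hgsnat in heparan sulfate breakdown, stood at 183 and 147 CPM in the KO-labelled libraries and 170.2 and 167 CPM in the WT-labelled ones (log2 fold -0.039, 95% interval -0.19 to 0.11). Gusb, for beta-glucuronidase, stood at 889 and 786 CPM with the KO label and 801 and 843 CPM with the WT label (log2 fold 0.025, interval -0.10 to 0.15). In both the groups overlapped, because the library labelled KO was above that labelled WT at 12 h and below it at 24 h. Idua, for alpha-iduronidase (log2 -0.044), and Galns, for the sulfatase of keratan sulfate (log2 -0.10), had both libraries labelled KO below both labelled WT. Their intervals, -0.21 to 0.12 and -0.25 to 0.046, include 0.

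**Figure D4:**
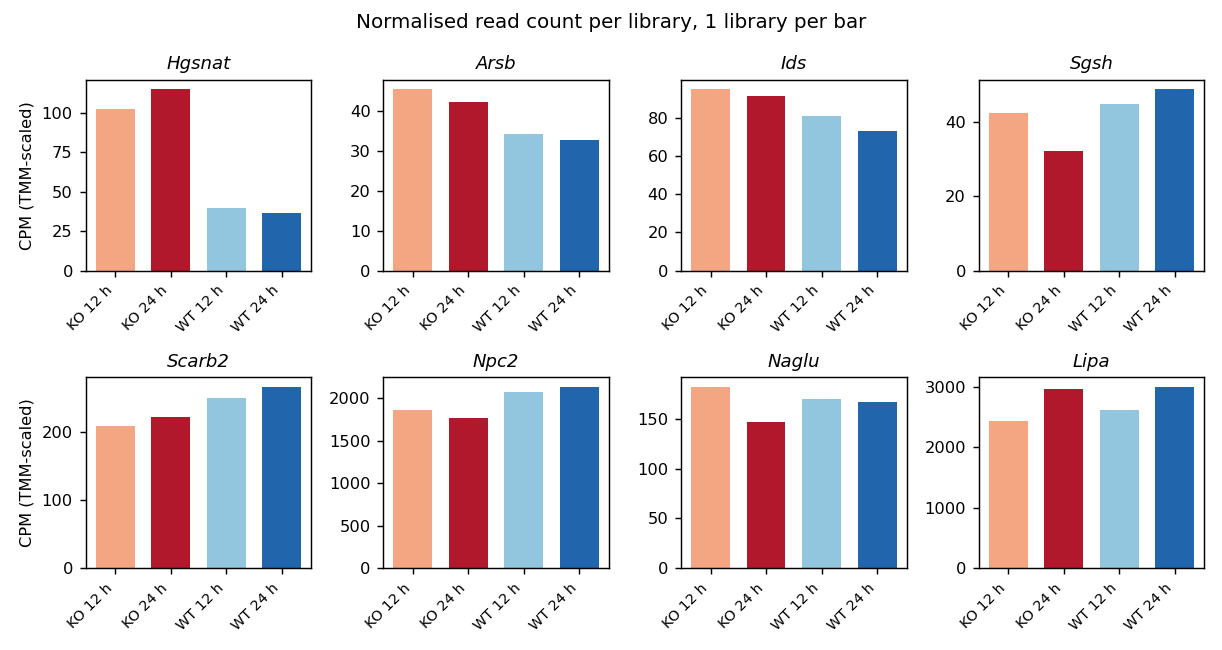
CPM of the 6 members called for genotype, of Naglu and of Lipa in the 4 libraries, 1 library per bar, red for KO and blue for WT. Hgsnat is about 100 or more CPM with the KO label and under 40 CPM with the WT label. Sgsh and Naglu are lowest in KO at 24 h, and Lipa is higher at 24 h than at 12 h in both genotypes.

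No sphingolipid-degrading member was called, of 7, beside 9.52% of all genes tested. Psap stood at 23488 and 25848 CPM in the KO-labelled libraries, against 24271 and 26435 CPM in the WT-labelled ones, and the groups overlapped. Its log2 fold was -0.040 (95% interval -0.13 to 0.055). Hexa was the nearest of the 7 to a call, at 1538 and 1595 CPM with the KO label and 1666 and 1795 CPM with the WT label, without overlap (log2 fold -0.14, SE 0.055, edgeR adjusted p = 0.114). Gla, for alpha-galactosidase A, and Glb1, for beta-galactosidase, had folds of log2 -0.042 and log2 -0.035. Asah1, for acid ceramidase (log2 -0.028), Smpd1, for acid sphingomyelinase (log2 0.046), and Arsa, for the sulfatase of sulfatides (log2 0.014), each had ratios of opposite sign at 12 h and 24 h.

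Enzymes of glycoprotein and glycogen breakdown had 5 of 6 folds below 0, beside 50.5% of all genes tested, and no call, beside 9.52%. Neu1, for a lysosomal sialidase, stood at 125 and 132 CPM in the KO-labelled libraries and 146 and 148 CPM in the WT-labelled ones, without overlap (log2 fold -0.19, SE 0.073, edgeR adjusted p = 0.113). Fuca1, for alpha-fucosidase, had a log2 fold of -0.15 (adjusted p = 0.230), Manba, for beta-mannosidase, log2 -0.13, and Man2b1, for alpha-mannosidase, log2 -0.11. Gaa, for the acid glucosidase of glycogen (log2 -0.014), and Aga, for aspartylglucosaminidase (log2 0.026), lay closest to 0.

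Of the 3 genes for the release of cholesterol and fatty acids, Npc2 was called lower, beside 5.34% of all genes tested. Its product hands cholesterol in the lysosomal lumen to the membrane protein made by Npc1. Npc2 stood at 1864 and 1769 CPM in the KO-labelled libraries at 12 h and 24 h, against 2078 and 2137 CPM in the WT-labelled ones, and the groups did not overlap. The log2 fold was -0.21 (SE 0.056, edgeR adjusted p = 0.0100). Npc1 stood at 622 and 612 CPM with the KO label and 613 and 645 CPM with the WT label, overlapping, with a log2 fold of -0.026 (95% interval -0.15 to 0.097). Lipa, whose product splits cholesteryl esters and triglycerides, stood at 2429 and 2958 CPM with the KO label and 2621 and 3006 CPM with the WT label (log2 fold -0.066, interval -0.18 to 0.044). The call of Npc2 was lost when libraries were scaled by their totals alone (adjusted p = 0.0960), with DESeq2 (0.0640) and with time left out (0.215). Without KO 12 h, KO 24 h, WT 12 h and WT 24 h in turn, adjusted p was 0.197, 0.475, 0.580 and 0.809.

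Among 8 membrane proteins, Scarb2 was called lower and none higher, beside 5.34% and 4.18% of all genes tested. Scarb2 encodes LIMP-2, the receptor that carries beta-glucocerebrosidase to the lysosome. Its level was 210.04 and 222 CPM in the KO-labelled libraries, against 250.5 and 267 CPM in the WT-labelled ones, without overlap. The log2 fold was -0.26 (SE 0.066, edgeR adjusted p = 0.00828), and the ratio was nearly the same at 12 h (0.839-fold) and 24 h (0.832-fold). DESeq2 called it as well (adjusted p = 0.0404). It was not called with libraries scaled by their totals alone (0.0663), with time left out (0.150), or in the fits without KO 12 h, KO 24 h, WT 12 h and WT 24 h in turn (0.199, 0.0669, 0.351 and 0.738).

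The abundant membrane glycoproteins differed by less. Lamp1 stood at 3843 and 3924 CPM in the KO-labelled libraries, against 4154 and 4205 CPM in the WT-labelled ones, without overlap (log2 fold -0.11, 95% interval -0.21 to 0.00084, edgeR adjusted p = 0.245). Cd68, a macrophage glycoprotein of the LAMP family, stood at 2070.1 and 2104 CPM with the KO label and 2161 and 2215 CPM with the WT label, without overlap (log2 fold -0.068, interval -0.18 to 0.043). Lamp2, needed for the fusion of autophagosomes with lysosomes, stood at 776 and 802 CPM with the KO label and 804 and 755 CPM with the WT label, overlapping (log2 fold 0.018, interval -0.10 to 0.14). Cln3, for a membrane protein lost in a juvenile storage disease of neurons, had both libraries labelled KO below both labelled WT and a log2 fold of -0.19 (adjusted p = 0.113), and it shares exon sequence with Apobr on the opposite strand. Mcoln1, for the calcium channel TRPML1 (log2 -0.067), Cd63 (log2 0.095) and Laptm5 (log2 0.0012) were not called.

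Neither Grn, Tpp1 nor Ppt1 was called. Grn stood at 2559.7 and 2470.5 CPM in the KO-labelled libraries and 2657 and 2525 CPM in the WT-labelled ones, overlapping (log2 fold -0.043, 95% interval -0.15 to 0.067). Tpp1, for tripeptidyl peptidase, had a log2 fold of 0.082 and Ppt1, for the thioesterase that removes palmitate from proteins, log2 -0.051.

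The tagging enzyme and the transcription factors did not pass the test either. Gnptab, for the enzyme that starts the mannose 6-phosphate tag, stood at 146 and 156 CPM in the KO-labelled libraries and 159 and 159 CPM in the WT-labelled ones (log2 fold -0.072, 95% interval -0.22 to 0.074). Tfeb stood at 88.7 and 78.9 CPM with the KO label and 85.0 and 81.2 CPM with the WT label, overlapping (log2 fold 0.010, interval -0.15 to 0.17). Tfe3 was the more abundant of the pair by FPKM and stood at 172 and 179 CPM with the KO label and 180.4 and 193 CPM with the WT label (log2 fold -0.090, interval -0.23 to 0.052). These counts do not show where in the cell the factors were. The 9 members with CACGTG in their promoter had a median genotype log2 fold of -0.042 with 1 call (Sgsh, lower). The 24 without it had a median of log2 -0.048 with 2 calls higher and 2 lower. Of all genes tested, 9.52% were called. The 5 members with no promoter to search, Hgsnat among them, are in neither group.

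The comparison of 24 h with 12 h of IL-4, across both genotypes in the same model, called 1 of the 38 members. Lipa was higher at 24 h, with 2958 CPM (KO) and 3006 CPM (WT), against 2429 CPM (KO) and 2621 CPM (WT) at 12 h. Both libraries at 24 h lay above both at 12 h. Its log2 fold was 0.24 (SE 0.054, edgeR adjusted p = 0.00972), and DESeq2 called it too (adjusted p = 0.0346). The called share was 2.63%, beside 2.08% of all genes tested, of which 0.955% were higher and 1.13% lower at 24 h. Lipa was not called with libraries scaled by their totals alone (adjusted p = 0.0617), with genotype left out (0.999), or in the fits without KO 12 h, KO 24 h, WT 12 h and WT 24 h in turn (0.9998, 0.9505, 0.9998 and 0.794), and no gene of the table was called in those fits without genotype.

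Psap came next, with 25848 CPM (KO) and 26435 CPM (WT) at 24 h, against 23488 CPM (KO) and 24271 CPM (WT) at 12 h. Its log2 fold was 0.13 (95% interval 0.036 to 0.23, edgeR adjusted p = 0.184), and it was called when no filter on low counts was applied (adjusted p = 0.0214). The median over the members was log2 0.0045, beside log2 -0.0044 over all genes, and log2 -0.013 with library totals alone. Levels were higher at 24 h in both genotypes for 14 members (36.8%), beside 27.5% of all genes, and lower in both for 7 members (18.4%), beside 29.4%. No member passed 1 on the log2 scale of CPM + 1 in either genotype, a size reached by 0.261% of all genes with the KO label and 0.136% with the WT label.

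Within a genotype the members moved by small amounts and not always the same way. In libraries labelled KO, ratios of 24 h over 12 h ran from log2 -0.38 (Sgsh) to log2 0.28 (Lipa), and 19 of 38 lay below 0. In the WT-labelled ones they ran from log2 -0.16 (Smpd1) to log2 0.23 (Fuca1), and 12 of 38 lay below 0. The lowest ratios with the KO label were those of Sgsh, Naglu (log2 -0.31), Arsa (log2 -0.28) and Manba (log2 -0.21). With the WT label the same genes had log2 0.12, log2 -0.024, log2 0.093 and log2 -0.052. Whether time acted differently in the genotypes was not tested, since a model with that term leaves no residual degree of freedom.

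**Figure D5:**
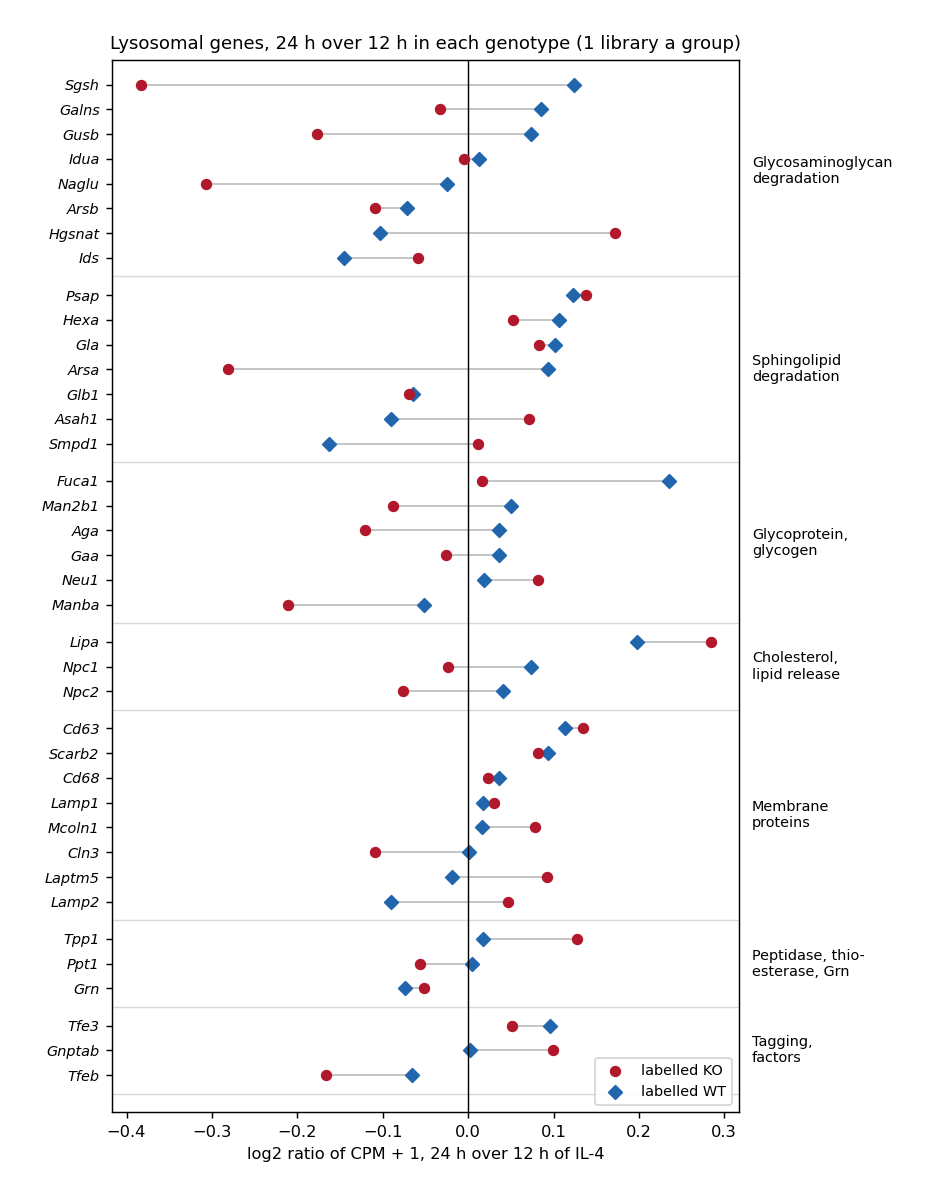
Ratio of 24 h over 12 h of IL-4, as log2 of CPM + 1, in libraries labelled KO (red circles) and WT (blue diamonds) for each of the 38 lysosomal genes. Lipa lies to the right in both genotypes. Sgsh, Naglu and Arsa are lowest with the KO label, and each point rests on 1 library per group.

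Other genes of the lysosome were counted in 5 lists with 136 entries, all in the table. Of 34 other enzymes and activators tested, 1 was called higher and 4 lower for genotype, or 14.7%, beside 9.52% of all genes. The lower ones were Rnaset2a, a ribonuclease gene whose near-identical copy Rnaset2b makes its count uncertain (log2 -1.06), Hpse, for heparanase, which cuts heparan sulfate chains (log2 -0.29), Smpdl3a, for a phosphodiesterase related to acid sphingomyelinase (log2 -0.25), and Lgmn, for the protease legumain (log2 -0.20). Rnaset2a stood at 20.9 and 17.5 CPM in the KO-labelled libraries, against 23.8 and 65.6 CPM in the WT-labelled ones, so its distance lay mostly in WT at 24 h. Plbd1, for a phospholipase B-like protein, was higher (log2 0.58). Of 32 other membrane proteins and transporters, 2 were called higher and 5 lower, or 21.9%, again beside 9.52% of all genes. Slc11a1, for the divalent metal transporter NRAMP1 of phagosomes, stood at 302 and 349 CPM in the KO-labelled libraries, against 446 and 496 CPM in the WT-labelled ones (log2 fold -0.54, SE 0.062, edgeR adjusted p = 3.00e-07). Laptm4b (log2 -0.64) and the lipid transporter gene Spns1 (log2 -0.33) were also lower. Of the 2 called higher, Cd164, for a sialomucin and picked after its value was seen, had a log2 fold of 0.27.

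Of 19 subunit and accessory genes of the V-ATPase, the proton pump of the lysosome, 2 were called higher and 0 lower. That share, 10.5%, was near the 9.52% of all genes. Atp6v0a1, for a membrane subunit, stood at 1581 and 1541 CPM in the KO-labelled libraries, against 1179 and 1235 CPM in the WT-labelled ones (log2 fold 0.37, SE 0.057, edgeR adjusted p = 2.38e-05). The other V-ATPase gene called was Atp6v0d2 (log2 0.27), for a subunit abundant in osteoclasts, while the median of the list was log2 -0.045. Of 22 genes of mannose 6-phosphate tagging and sorting, 0 were called by edgeR and 2 had an unadjusted p under 0.05. In the list of nutrient sensing and TFEB control 1 of 25 was called higher and 1 lower (8.0%). The higher one was Tfec, for a relative of TFEB (log2 0.33), and the lower one Fnip2, for a partner of folliculin (log2 -0.25). Over all 5 lists 6 of 132 genes were called higher and 10 lower for genotype, with a median of log2 -0.061, and the called share was 12.1%, beside 9.52% of all genes. Which direction led depended on scaling, with 9 higher and 4 lower by library totals alone and 9 each way by upper-quartile scaling. For time 1 was called higher and 2 lower, or 2.27%, beside 2.08% of all genes. Acp5, for the tartrate-resistant phosphatase, was higher at 24 h (log2 0.48), and Mfsd1, for a lysosomal transporter (log2 -0.31), and Hpse (log2 -0.26) were lower.

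Markers of cell types moved with the labelled genotype as well. Beside the calls below, 4.18% of all genes tested were called higher and 5.34% lower. The 12 macrophage markers summed to 17903 CPM at 12 h and 16722 CPM at 24 h in the KO-labelled libraries. In the WT-labelled ones they summed to 21897 and 20547 CPM at the same times. Of the 12, 7 were called lower and 0 higher. Their genotype folds ran from log2 -3.25 to log2 0.051, with a median of log2 -0.28. Osteoclasts are a cell type rich in secreted lysosomal enzymes. Their 10 markers summed to 1710.4 and 1988 CPM in the KO-labelled libraries, against 1527 and 1600.3 CPM in the WT-labelled ones. Of the 8 tested, 3 were called higher and 0 lower. Oscar was at 0 in some libraries and Calcr was not in the table. That list shares Acp5 and Atp6v0d2 with the lysosomal lists. Stromal and fibroblast markers (10 genes) summed to 262 and 293 CPM in the KO-labelled libraries, against 158 and 173 CPM in the WT-labelled ones. Of the 8 tested, 7 were called higher and 0 lower. Neutrophil markers (10 genes) summed to 794 and 678 CPM in the KO-labelled libraries, against 1052 and 956 CPM in the WT-labelled ones. Of the 8 tested, 6 were called lower and 0 higher, and Ly6g was at 0 in some libraries. The other marker lists were scarce and had 0 genes called higher. The 10 lymphocyte markers (2 tested, 1 called lower) summed to between 28.3 and 49.2 CPM. The 8 mast cell and basophil markers (3 tested, 2 called lower) summed to at most 7.39 CPM. Of these, Mcpt8 and Fcer1a were at 0 in some libraries, and Tpsb2 and Cma1 were not in the table. The 7 dendritic cell markers (1 tested, 0 called lower) summed to at most 6.22 CPM, with Xcr1 not in the table. The part of any of these in the differences of the lysosomal genes was not tested.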

How the data were processed

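For each gene symbol and library the authors deposited an unnormalized count and an FPKM value, in 1 table. The tools named per the submitters' processing notes are edgeR, HISAT2 and StringTie 1.3.0, with build mm10. Which tool counted reads, and with which annotation, is not given in the sources used here. Per the labels' protocols, mRNA was captured on beads and libraries made with the VAHTS Universal V6 kit. The deposited FPKM carried no scaling beyond length and library total (count over FPKM, relative to the totals, deviated by at most 7.82e-14).

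Counts were scaled by TMM in edgeR 4.0.16 (R 4.3.3) and given as CPM. Genotype and time were tested by two-sided quasi-likelihood F tests in an additive model of all 4 libraries. Genes reaching 1 CPM in 2 or more libraries (10993) were tested, and p-values were adjusted over these by Benjamini-Hochberg. All 38 members passed. The common dispersion was 0.00602. A fold is on the log2 scale, its SE is the fold over the square root of F, and 95% intervals are unadjusted. Library ratios are log2 of CPM plus 1 and have no test, and single-library folds have exact binomial 95% intervals. The fits were tested on counts simulated with a dispersion of 0.006 for every gene. Of 1.5-fold changes 83.3% were called for genotype and 79.1% for time, and of 2-fold and 4-fold changes 100%. Folds under 1.5, such as those of every called member but Hgsnat, were not simulated. Gene positions are from GENCODE M21 (GRCm38), which held 14488 of the 14936 symbols, and promoter windows are from RefSeq.

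The members and lists were chosen with earlier results of these data known. Full values are given for members called for genotype or time and for 12 members fixed by role, and for up to 4 called genes of each other list. The alternatives were median-of-ratios, upper-quartile and total-count scaling, no filter, a 5 CPM filter, DESeq2 1.42.0, models without the other term, fits of 3 libraries and, added after the data were seen, a filter before scaling. Exons of 12 members overlap another annotated gene, 9 of them (Hexa, Glb1, Sgsh, Idua, Npc1, Lamp1, Grn, Ppt1 and Cln3) one in the table, so their counts can include its reads.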

Additional observations from a re-analysis of the deposited data

Results flagged for a closer look

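For 6 members the ratio of the library labelled KO over that labelled WT pointed one way at 12 h and the other way at 24 h, with both exact 95% counting intervals away from 1. The hydrolase genes Gusb, Naglu and Arsa were higher with the KO label at 12 h and lower at 24 h. Gusb was 1.11-fold at 12 h (1.09 to 1.13) and 0.932-fold at 24 h (0.918 to 0.948). Naglu was 1.07-fold at 12 h (1.04 to 1.11) and 0.881-fold at 24 h (0.849 to 0.914). Arsa was 1.15-fold at 12 h (1.08 to 1.22) and 0.883-fold at 24 h (0.825 to 0.945). Asah1, Lamp2 and Laptm5 went the other way, lower with the KO label at 12 h and higher at 24 h. Asah1 was 0.927-fold at 12 h (0.910 to 0.944) and 1.04-fold at 24 h (1.02 to 1.06). Lamp2 was 0.966-fold at 12 h (0.951 to 0.981) and 1.06-fold at 24 h (1.04 to 1.08). Laptm5 was 0.963-fold at 12 h (0.953 to 0.973) and 1.04-fold at 24 h (1.03 to 1.05). With 1 library at each time the difference between the times was not tested, and the intervals cover counting error only. Such intervals narrow as counts grow, so even ratios as small as those of Laptm5 lie away from 1. They leave out the scatter over all genes in the additive fit, a coefficient of variation of 7.76%. Without replicates, that scatter itself includes such changes of the ratio between the times. The share of all genes that turned in this way was not counted.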

How the results depend on the processing

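Hgsnat kept its direction and its call in all 12 alternatives. The folds of Arsb, Ids, Sgsh, Scarb2, Npc2 and, for time, Lipa kept their direction in each, but not always their call. Members called for genotype numbered 6 (3 higher, 3 lower), and 3 (3 higher, 0 lower) with library totals alone, 2 (1 and 1) by DESeq2 and 1 (1 and 0) with time left out. The shares called were then 7.89% of members, beside 7.63% of all genes, with library totals alone. By DESeq2 they were 5.26%, beside 4.70%, and with time left out 2.63%, beside 2.36%. In each of these the members' share lay near that of all genes. Fits of 3 libraries, also without time, called fewer members than the main fit, and a smaller share of all genes as well. Leaving out time cost most calls with all 4 libraries present as well, so a call lost in these fits cannot be tied to the library left out. Members called for time numbered 1, and 0 with library totals alone, 2 with no filter, both higher, 0 with genotype left out and 0 in each fit of 3 libraries. Of the other lysosome genes 16 were called for genotype, and 9 by DESeq2, 2 with time left out and 0 to 10 in fits of 3 libraries. For time 3 were called, and 0 both with genotype left out and in fits of 3 libraries. Over all genes, calls for genotype were 459 higher and 587 lower, and 515 and 324 with library totals alone, which shifted the median of all genes to log2 0.055. Filtering before scaling moved the prior degrees of freedom to 14.7 (27.8 otherwise) and the calls to 387 and 494. Measured by FPKM, the members' share was 4.44% and 4.73% with the KO label and 4.39% and 4.53% with the WT label. Pseudocounts of 0.5 and 5 CPM did not change how many library ratios passed 1. The cause of the other changes was not tested. No paired analysis was possible because the labels give no replicate numbers that groups share.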

Other observations

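The neighbours of the members called for genotype were looked at after their values were seen, within 500 kb on GRCm38. Beside Hgsnat on chromosome 8, 1 of 13 tested genes was called: Pomk, for a kinase that acts on a sugar of dystroglycan, whose nearest end lies 3851 bases from Hgsnat, was higher with the KO label (log2 0.66, SE 0.14, edgeR adjusted p = 0.00109). Around Sgsh on chromosome 11, 4 of 12 were called. Slc26a11, for an anion transporter, starts 21 bases from Sgsh on the opposite strand and was lower (log2 -0.40, SE 0.10, edgeR adjusted p = 0.00954). Card14 (log2 -0.68) and Rnf213 (log2 -0.20) were also lower, while Nptx1 was higher (log2 1.92). Card14 shares exon sequence with Sgsh and had only 3.31 to 6.67 CPM. Near Arsb, Ids, Scarb2 and Npc2, 1 of 5, 0 of 1, 1 of 9 and 0 of 17 tested neighbours were called by edgeR. Of all genes tested, 9.52% were called. Whether calls gather around any member was not tested.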
